A study of Rattus with 27 samples.

Results

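Exocrine pancreas enzyme genes were followed in the spleens of rats 6 h after stroke surgery or a sham operation, with blood and brain of the same study as background. The 9 genes are Amy2a3, Cpa1, Cpb1, Pnlip, Pnliprp1, Clps, Cel, Ctrb1 and Cela2a. They were selected on their measured values in the spleen, among 14506 genes read by a probe with a single gene symbol. Their spleen values are therefore given as a description, without a test. Where a gene has several probes, the brightest on average over the 27 arrays stands for it. All 9 genes were measured, and only Amy2a3 had a second probe.

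The arrays came from 9 Sprague Dawley rats, with 3 arrays per group in each tissue. The sample titles name a vehicle group (rats 2, 4 and 5), a model group (rats 1, 2 and 3) and a sham group (rats 3, 4 and 5), and equal numbers in different groups are different rats. Vehicle-labelled and model-labelled rats both underwent MCAO, an occlusion of the middle cerebral artery that causes an ischemic stroke. Sham rats had only anesthesia and exposure of the vessels. The treatment protocol pairs a vehicle control with animals that received YJ (25 mg/kg), and names no model group. No label settles which titled group received YJ, so no group is called treated here. The labels give no age for the animals. Spleen and brain RNA came from tissue homogenate, and blood RNA from isolated white blood cells. In such bulk samples, fewer cells of a type and less RNA per cell cannot be told apart.

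Acinar cells of the pancreas make digestive enzymes, store them as zymogens in granules and release them into the gut. Amylase, carboxypeptidases, lipases and serine proteases are among their most abundant transcripts, and they are not typical products of spleen cells. In the rat, the tail of the pancreas lies against the spleen. Whether pancreatic tissue was collected with any of these spleens was not tested.

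The deposited values are taken as log2 intensities, so a difference of 1 is a doubling of signal. They run from 1.53 to 13.49, and a dim probe understates a change because unspecific signal adds to it. Levels of different genes are not comparable, since each probe binds with its own strength. Ms4a1, a B cell membrane protein, lay at 9.14 to 10.17 in spleen, 7.49 to 8.81 in white blood cells and 2.95 to 3.60 in brain. Cxcl13, a chemokine of B cell follicles, lay at 8.53 to 9.69, 2.88 to 3.15 and 3.05 to 3.89 in that order. Not every gene of the spleen lists separated the tissues. The other measured B cell genes, Cr2, Cd79b and Cd22, overlapped between spleen and white blood cells, as did some red pulp and stroma genes, such as Spic. Each spleen array correlated with the other 8 at a median r between 0.983 and 0.990, lowest for vehicle 4. Vehicle 4 also had the lowest Cr2, a receptor of mature B cells, at 7.70.

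Amy2a3 encodes pancreatic alpha-amylase, which cuts starch. Its spleen values were 6.67, 3.12 and 4.62 in vehicle 2, 4 and 5, against 2.94, 3.06 and 2.74 in model 1, 2 and 3, and 2.91, 2.90 and 2.92 in sham 3, 4 and 5. The vehicle arrays lay above both other groups without overlap, but most of that separation came from vehicle 2 and vehicle 5. Relative to the sham mean, the signal of this probe was 13.5-fold higher in vehicle 2 and 3.27-fold higher in vehicle 5. Vehicle 4 was 0.21 higher in log2 units. These folds hold for this probe and scaling: in log2 units vehicle 2 stood 3.76 above sham, and 3.625 with the mean of both probes. The sham signal lay at the level of white blood cells and brain, so unspecific signal may understate them. The group means were 4.80 ± 1.78 in vehicle, 2.91 ± 0.16 in model and 2.91 ± 0.01 in sham spleens (SD, n = 3 each).

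The second Amy2a3 probe read 6.35, 3.07 and 4.72 in vehicle 2, 4 and 5, against 2.81, 3.02 and 2.70 in the model spleens and 2.85, 2.85 and 2.88 in the sham spleens. Both probes thus placed the spleens in nearly the same way, with vehicle 2 first and vehicle 5 next. The amylase genes are a family of close copies, and whether these probes read only Amy2a3 was not tested. Amy1, the amylase gene known from salivary gland and liver, is separated from Amy2a3 by 1 coding gene in the RefSeq annotation (GRCr8). It read 3.03, 2.85 and 2.60 in the vehicle spleens, 2.65, 3.13 and 2.74 in the model spleens and 2.72, 2.89 and 2.42 in the sham spleens, and these groups overlapped.

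Among all genes, the Amy2a3 excess over the median of the other 8 spleens ranked 2 of 14506 in vehicle 2, at 3.74, behind Ly6al. In vehicle 5 it ranked 1, at 1.69. In vehicle 4 it ranked 3263, at 0.19. The signal in white blood cells ran from 2.70 to 3.03 and that in brain from 2.70 to 2.99. The model and sham spleens thus lay at about the level read in white blood cells and brain.

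Cpa1 and Cpb1 encode procarboxypeptidases, whose active forms remove amino acids from the ends of peptides. Cpa1 read 4.62, 4.15 and 4.54 in vehicle 2, 4 and 5, against 3.71, 4.04 and 4.16 in the model spleens and 4.02, 3.74 and 4.24 in the sham spleens. Vehicle 4 fell within the range of both other groups, so only vehicle 2 and 5 stood above them. Cpb1 read 4.56, 3.74 and 3.96 in the vehicle spleens, 3.27, 3.90 and 3.27 in the model spleens and 4.00, 3.41 and 3.34 in the sham spleens. Only vehicle 2 lay above every model and sham array for Cpb1, and sham 3 came second among all spleens.

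Pnlip encodes pancreatic triglyceride lipase, the main enzyme of fat digestion. It read 4.94, 4.56 and 4.45 in vehicle 2, 4 and 5, against 4.27, 4.48 and 4.16 in the model spleens and 4.17, 4.22 and 4.14 in the sham spleens. All vehicle arrays were above all sham arrays, and vehicle 5 fell just below model 2. Clps encodes colipase, the cofactor that holds the lipase to fat droplets in the presence of bile salts. Its values were 4.36, 4.03 and 4.11 in vehicle, 3.85, 4.08 and 4.00 in model and 3.71, 3.70 and 3.85 in sham spleens. Clps again separated vehicle from sham, while model 2 exceeded vehicle 4.

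Pnliprp1, a relative of the pancreatic lipase with little lipase activity of its own, is the direct neighbor of Pnlip in the RefSeq annotation. It read 3.39, 3.02 and 3.17 in vehicle spleens, against 2.91, 3.29 and 2.71 in model spleens and 2.67, 2.68 and 2.78 in sham spleens. Vehicle lay wholly above sham, but model 2 was nearly as high as vehicle 2. Cel encodes the bile salt-activated carboxyl ester lipase, which lactating mammary gland also makes. Its values of 5.09, 4.85 and 4.53 in vehicle spleens overlapped 4.66, 4.60 and 4.82 in model spleens and 4.17, 4.62 and 4.46 in sham spleens. Cel was highest in vehicle 2 and vehicle 4, while vehicle 5 lay inside the sham range.

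Ctrb1 and Cela2a encode chymotrypsinogen B and a pancreatic elastase, serine proteases stored as inactive precursors. Ctrb1 read 6.99, 6.74 and 6.05 in vehicle 2, 4 and 5, against 5.99, 5.60 and 5.78 in model spleens and 5.89, 5.26 and 6.16 in sham spleens. Vehicle lay above model without overlap, whereas sham 5 exceeded vehicle 5. Cela2a read 5.75, 5.27 and 5.03 in vehicle, 5.26, 5.19 and 5.00 in model and 5.06, 4.95 and 5.03 in sham spleens. Its excess stood mainly in vehicle 2, and vehicle 5 was no higher than sham 5.

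**Figure D1:**
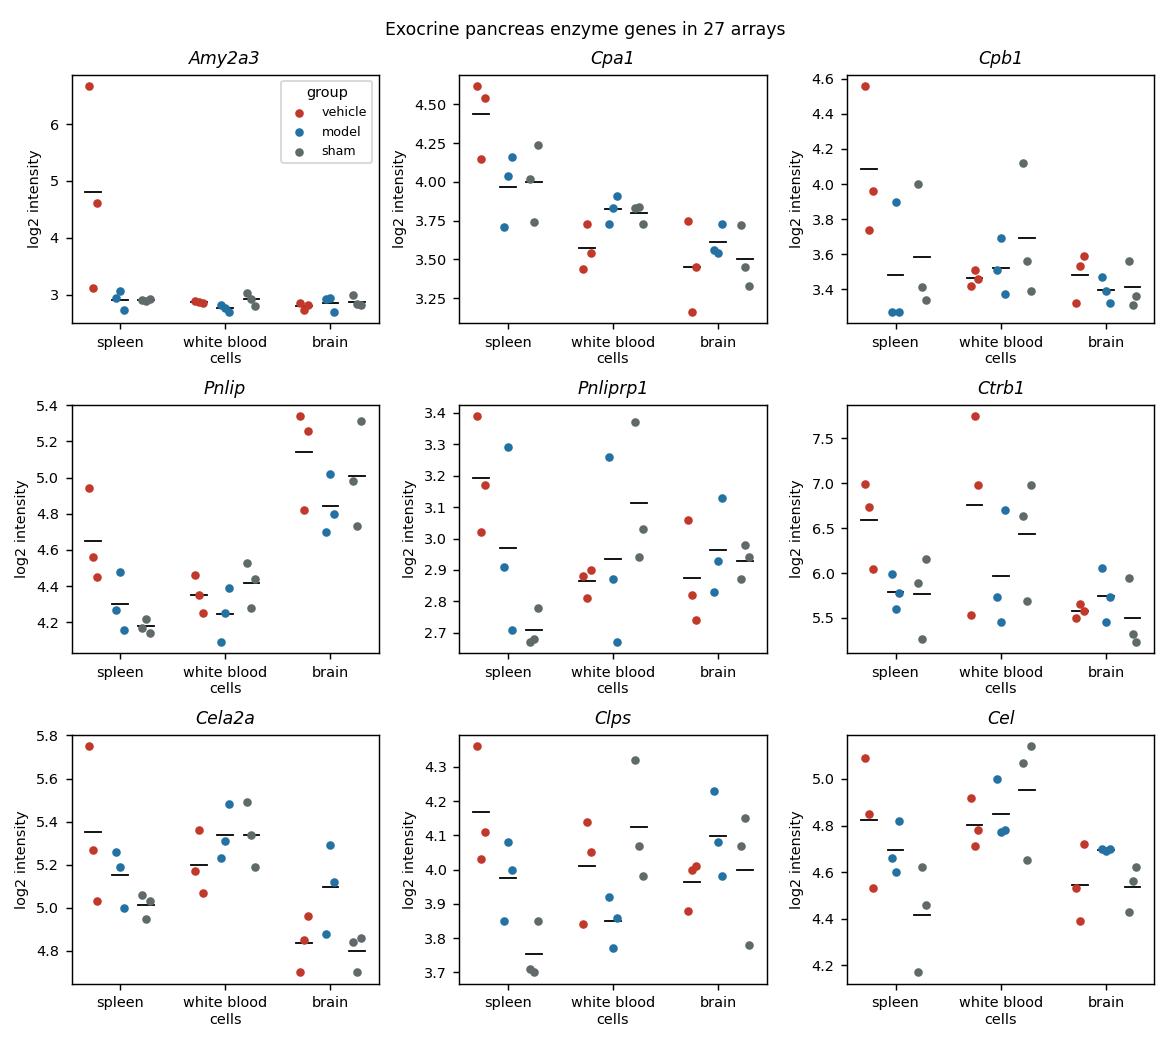
Log2 intensity (vertical axis, its own range in each panel) of the 9 exocrine pancreas enzyme genes in each array of spleen, white blood cells and brain. Each point is 1 rat (vehicle 2, 4 and 5, model 1, 2 and 3, sham 3, 4 and 5, from left to right within a group) and each line a group mean of 3 arrays. Vehicle 2 is the highest spleen for every gene, and Amy2a3 reaches 6.67 there, against at most 3.03 in blood and brain.

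All 9 genes had their highest spleen value in vehicle 2, as did 22.1% of all genes and 33.7% of the dimmest 40% by spleen mean. The excess over the median of the other 8 spleens was 1.05 for Ctrb1, 0.99 for Cpb1 and 0.70 for Cela2a, and it was smallest for Clps, at 0.43. By size of this excess, 7 of the 9 genes were among the first 500 genes of vehicle 2 (3.45% of all genes). In vehicle 5 that held for 2 genes, Amy2a3 and Cpa1, and in vehicle 4 for Ctrb1 alone. The second-highest spleen was another vehicle array for 7 genes, vehicle 4 for 4 of them and vehicle 5 for 3. The genes therefore shared vehicle 2 as their peak but not the order of the other spleens.

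Averaged over the 9 genes, the level relative to the sham mean was 1.12 in vehicle 2, 0.35 in vehicle 4 and 0.46 in vehicle 5. The model spleens lay between 0.03 and 0.21 and the sham spleens between -0.09 and 0.07. Without Amy2a3 the vehicle values were 0.78, 0.37 and 0.30, so vehicle 4 was then slightly above vehicle 5 in the deposited values. The levels of dim genes as a whole also differed between these arrays: the median over the dimmest 40% of genes was 0.19 in vehicle 2, 0.14 in vehicle 4, -0.03 in vehicle 5 and 0.15 in model 2. The part of that shift in the results was measured by rescaling. After quantile normalization of the spleens, Amy2a3 in vehicle 2 stood 3.72 above the sham mean and the other 8 genes 0.62 on average, and vehicle 2 was the highest spleen for 6 of the 9 genes. After median centring it was the highest for 8. Quantile normalization reversed the order of vehicle 4 and vehicle 5 over the 8 genes without Amy2a3, to 0.26 and 0.35.

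The vehicle group mean exceeded the sham mean for all 9 genes. Amy2a3 differed by 1.89 ± 0.60 (standard error from the limma fit of the 9 spleen arrays), Ctrb1 by 0.82 ± 0.25, and the other 7 genes by between 0.34 and 0.50. The fit uses 1 spread per gene for all 3 groups. For Amy2a3 the SD was 1.78 in vehicle, 0.16 in model and 0.01 in sham spleens. Its standard error is therefore too small for contrasts with vehicle and too large for model minus sham. The median of the 9 differences was 0.47, against 0.04 over all genes. Vehicle arrays lay above sham arrays without overlap for 4 genes (Amy2a3, Pnlip, Pnliprp1 and Clps), as for 7.49% of all genes. Model minus sham ran from -0.10 for Cpb1 to 0.28 for Cel, and was 0.00 ± 0.60 for Amy2a3. The median there was 0.13, against 0.07 over all genes, and no gene of the 9 had all model arrays above all sham arrays, as 13.4% of all genes did.

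Vehicle minus model had a median of 0.35 over the 9 genes, against -0.02 over all genes, and was 1.89 ± 0.60 for Amy2a3 and 0.80 ± 0.25 for Ctrb1. Amy2a3 and Ctrb1 were the 2 genes with every vehicle array above every model array, a pattern of 3.5% of all genes. For both MCAO groups together minus sham the median was 0.32, against 0.05 over all genes. Called means a limma adjusted p under 0.05 (Benjamini-Hochberg over all 14506 genes). In these spleen contrasts 0 of the 9 genes were called. Of all genes, 0.0965% were called for MCAO minus sham, 0.0483% for vehicle minus sham, 0.0414% for model minus sham and 0% for vehicle minus model. At an unadjusted limma p under 0.05 the counts were 4, 7, 0 and 5 of the 9 genes in that order. Because the genes were selected on these contrasts, nothing is read from the counts.

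**Figure D2:**
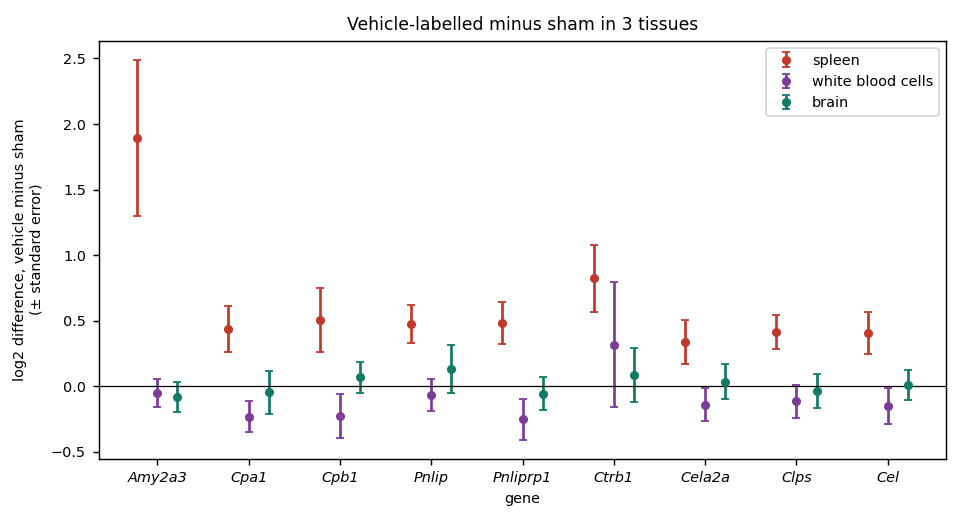
Difference of group means, vehicle minus sham (vertical axis, log2 units), of the 9 genes in spleen, white blood cells and brain, with limma standard errors as bars (3 arrays per group). In spleen all 9 differences are above 0, from 0.34 to 1.89, and in white blood cells only that of Ctrb1 is.

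White blood cells and brain were not used to select the genes, so the same contrasts were tested there. In white blood cells 0 of the 9 genes were called in any contrast. The shares of all genes called were 0.931% for MCAO minus sham, 2.01% for vehicle minus sham, 0% for model minus sham and 1.56% for vehicle minus model. The lowest limma adjusted p was 0.41, for Cpa1 in vehicle minus sham, a difference of -0.23 ± 0.11. At an unadjusted p under 0.05 stood Clps in model minus sham and Cpa1 in vehicle minus model, 2 of the 36 tests. Vehicle minus sham ranged from -0.25 for Pnliprp1 to 0.32 ± 0.48 for Ctrb1, and 8 of the 9 differences were below 0.

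Ctrb1 was the gene that varied most between white blood cell samples. It read 5.53, 7.75 and 6.98 in the vehicle rats, 5.73, 5.46 and 6.70 in the model rats and 6.64, 5.69 and 6.98 in the sham rats. High and low values occurred in every group, and the highest of all 27 arrays for this gene was the white blood cell sample of vehicle 4.

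In brain 0 of the 9 genes were called in any contrast. Of all genes 0.8% were called for MCAO minus sham, 0.0483% for vehicle minus sham, 1.16% for model minus sham and 0.0551% for vehicle minus model. The lowest limma adjusted p was 0.35, for Cela2a in model minus sham, a difference of 0.30 ± 0.13 and the 1 brain test of 36 with an unadjusted p under 0.05. Vehicle minus sham in brain ranged from -0.08 for Amy2a3 to 0.13 ± 0.19 for Pnlip. The difference between the blood and brain effects was tested in a limma fit of all 27 arrays. That fit did not pair the tissues of a rat, and its spread per gene included the spleen arrays. No gene of the 9 was called in it, with the lowest adjusted p at 0.39, for Clps in model minus sham. The shares of all genes called were 0.896% for MCAO minus sham, 0.862% for vehicle minus sham, 1.07% for model minus sham and 0.386% for vehicle minus model. For vehicle minus sham the 9 standard errors ran from 0.11 to 0.48 in white blood cells and from 0.11 to 0.21 in brain. These errors set the size of difference the tests within each tissue could show. The test between blood and brain was coarser for Amy2a3. Its standard error there was 0.62 in vehicle minus sham, against 0.11 in white blood cells and 0.11 in brain alone.

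As background for the spleen values, the levels of each gene were set against the 18 blood and brain arrays. For 6 of the 9 genes at least 1 spleen lay above all 18, as for 28.3% of all genes. The margin was 3.64 for Amy2a3 and 0.71 for Cpa1, and less than 0.5 for the other 4 (Cpb1, Cela2a, Clps and Pnliprp1). Cpa1 was the gene with most such spleens, 7 of 9, including model and sham arrays. Its mean was 4.14 ± 0.31 in spleen, 3.73 ± 0.15 in white blood cells and 3.52 ± 0.20 in brain (SD, n = 9 each). The highest blood or brain value of 5 genes came from 1 array, the white blood cells of sham 3. The median of that array over all genes was 5.62, against 5.44 to 5.48 in the other white blood cell arrays.

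The remaining 3 genes had a blood or brain array above every spleen. Pnlip was highest in brain, at 5.00 ± 0.25, against 4.38 ± 0.26 in spleen and 4.34 ± 0.13 in white blood cells (SD, n = 9 each). Its lowest brain value, 4.70, was above the white blood cells and above every spleen except vehicle 2. Ctrb1 averaged 6.05 ± 0.54 in spleen, 6.38 ± 0.81 in white blood cells and 5.61 ± 0.27 in brain. Cel averaged 4.64 ± 0.26 in spleen, 4.87 ± 0.17 in white blood cells and 4.59 ± 0.12 in brain. These last levels overlapped between the tissues.

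Other digestive enzymes of acinar cells were taken from a list of 12 measured genes. Prss1, a trypsinogen, read 5.35, 4.60 and 4.54 in vehicle 2, 4 and 5, against 4.15, 4.40 and 3.98 in the model and 4.41, 4.30 and 4.43 in the sham spleens. Prss3b, another gene of the trypsin family, read 4.74, 3.83 and 4.35 in the vehicle, 3.68, 3.50 and 3.74 in the model and 3.86, 3.60 and 3.78 in the sham spleens. For Prss1 vehicle lay above both other groups without overlap, and for Prss3b vehicle 4 fell below sham 3. Trypsinogen genes are close copies, and probes that list several of them were not used.

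Pla2g1b, the pancreatic phospholipase A2, read 5.01, 3.90 and 4.43 in the vehicle, 3.98, 4.25 and 4.06 in the model and 3.93, 4.11 and 3.92 in the sham spleens. Ctrl, a chymotrypsin-like protease, read 5.72, 5.39 and 5.48 in the vehicle, 5.17, 5.06 and 5.18 in the model and 4.99, 5.01 and 4.68 in the sham spleens. Vehicle 2 was again first for both. All 12 enzymes of the list were highest in vehicle 2, and 6 of them exceeded the sham mean there by over 0.5. That excess was seen in 5.38% of all genes and in 7.20% of the dimmest 40%, and a peak in vehicle 2 in 22.1% and 33.7%. The list averaged 0.62 in vehicle 2, 0.17 in vehicle 4 and 0.17 in vehicle 5 relative to the sham mean. It ran from -0.06 to 0.15 in the model and from -0.04 to 0.06 in the sham spleens. The limma fit called 0 of the 12 in any contrast of any tissue.

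Genes of the acinar granule, its inhibitors and other acinar products showed less of this pattern. Of 18 measured genes 9 were highest in vehicle 2, and 4 exceeded the sham mean there by over 0.5. Over all genes these shares were 22.1% and 5.38%, and over the dimmest 40% they were 33.7% and 7.20%. Reg1a, a secreted lectin-like protein of acinar cells, read 3.74, 2.45 and 2.81 in the vehicle spleens, 2.83, 2.63 and 2.67 in the model spleens and 2.39, 2.47 and 2.50 in the sham spleens. Spink1, a trypsin inhibitor of the granule, read 3.91, 3.24 and 3.19 in the vehicle, 3.06, 3.69 and 3.23 in the model and 3.47, 3.03 and 2.93 in the sham spleens. Reg3b, a relative of Reg1a, stood at 3.81 in vehicle 2 and between 2.86 and 3.10 in the other 8 spleens. Tff2, a peptide of mucous secretions, was highest in vehicle 4, at 6.10. The list averaged 0.36, 0.15 and 0.04 in vehicle 2, 4 and 5, against 0.04 to 0.20 in the model and -0.06 to 0.04 in the sham spleens. None of the 18 was called in any contrast.

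**Figure D3:**
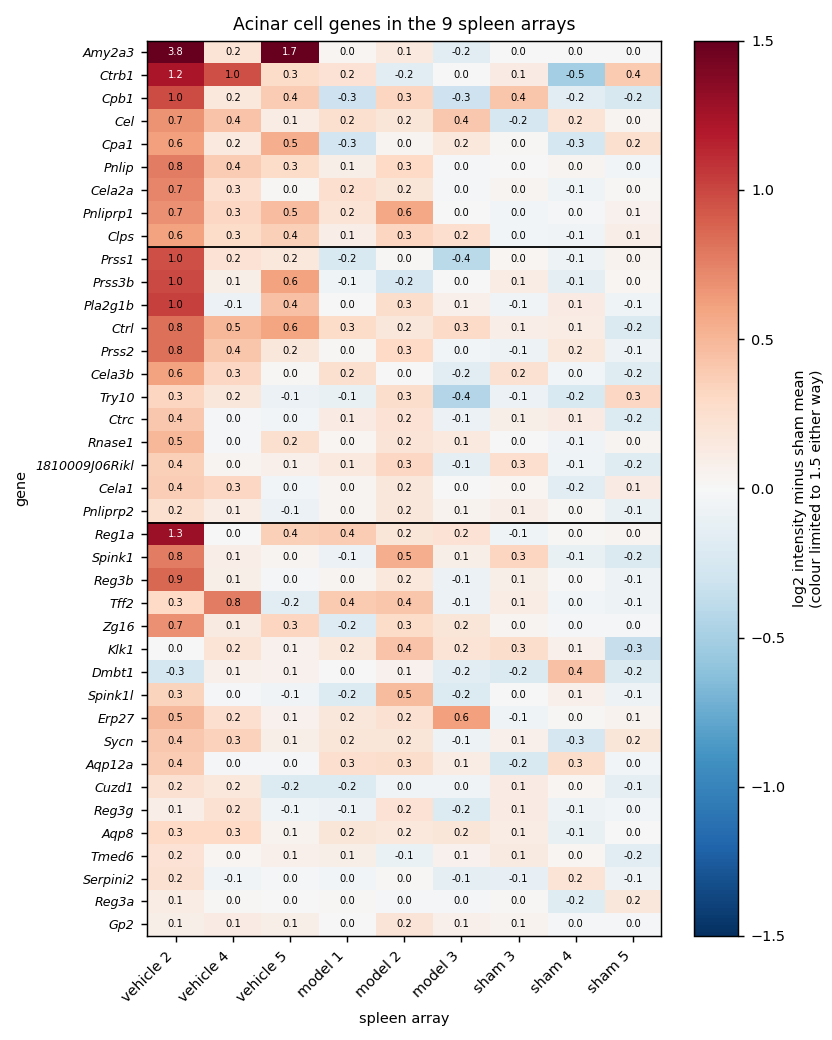
Log2 intensity minus the mean of the 3 sham spleens, printed and colored for each gene (rows) and spleen array (columns), with colors limited at 1.5. The blocks from top to bottom are the 9 enzyme genes, 12 other acinar enzymes and 18 other acinar genes, separated by black lines. The first column, vehicle 2, is the highest for every gene of the upper 2 blocks, with Amy2a3 at 3.76.

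Transcription factors of acinar cells did not exceed the sham mean by over 0.5 in vehicle 2, an excess seen in 5.38% of all genes. The 6 measured averaged 0.16, 0.14 and -0.06 in vehicle 2, 4 and 5, against 0.01 to 0.14 in the model and -0.12 to 0.14 in the sham spleens. Ptf1a, the factor that sets acinar identity, read 3.42, 3.62 and 3.26 in vehicle, 3.27, 3.39 and 3.07 in model and 3.37, 3.23 and 3.06 in sham spleens. Nr5a2, a nuclear receptor of acinar cells, was highest in vehicle 2, at 4.10, against at most 3.82 in the model and 3.90 in the sham spleens. Foxa3 and Gata4, factors of endoderm-derived organs, read 4.49 and 3.29 in vehicle 2, against 3.88 to 4.48 and 3.25 to 3.79 in the other spleens.

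The 12 measured islet genes averaged 0.24, 0.25 and -0.09 in vehicle 2, 4 and 5, and 0.06 to 0.20 in the model spleens. Ins1, an insulin gene, read 5.24, 4.97 and 4.40 in vehicle, 4.92, 5.13 and 4.75 in model and 4.83, 4.74 and 4.76 in sham spleens, with vehicle 5 the lowest. Ins2, the other insulin gene, Chga, a protein of endocrine granules, and Sst, somatostatin, were each highest in a spleen other than vehicle 2. The 6 measured duct genes averaged 0.15, 0.12 and 0.00 in the vehicle spleens, 0.05 to 0.16 in the model and -0.13 to 0.15 in the sham spleens. Krt19, an epithelial keratin, was highest in sham 5, at 5.00, Krt7, another, in vehicle 4, at 5.01, Slc4a4, a bicarbonate transporter, in model 3, at 6.14, and Cftr, a chloride channel, in vehicle 5, at 3.76. No gene of the factor, islet and duct lists exceeded the sham mean by over 0.5 in vehicle 2. Only 5.38% of all genes and 7.20% of the dimmest 40% did so, and with this few genes nothing is read from that absence.

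Adipocyte genes were partly high in the same spleens. The 8 measured averaged 0.41 in vehicle 2, 0.44 in vehicle 4 and -0.02 in vehicle 5, against -0.03 to 0.00 in the model and -0.10 to 0.17 in the sham spleens. In vehicle 2, 4 of the 8 exceeded the sham mean by over 0.5, against 5.38% of all genes. This share of 50% equals that of the other acinar enzymes. Cidec, a lipid droplet protein, read 4.82, 4.69 and 4.42 in the vehicle spleens, 3.91, 4.20 and 3.75 in the model spleens and 3.93, 4.01 and 4.33 in the sham spleens, so vehicle lay above both groups without overlap. Its correlation with the mean of the 9 enzymes was 0.82 over the 9 spleens. Adipoq, the adiponectin gene, read 4.72, 4.72 and 4.02 in the vehicle spleens, 3.88, 3.38 and 3.63 in the model spleens and 3.61, 3.28 and 4.82 in the sham spleens, highest in sham 5. Fabp4, a fatty acid-binding protein, was also highest in sham 5, at 7.87, and Cfd, the adipsin gene, in model 3, at 9.94. Vehicle 4 exceeded vehicle 5 in the adipocyte list, while for Amy2a3 vehicle 5 was the higher. For the mean of the 8 enzymes without Amy2a3 the order of these 2 spleens depended on the scaling.

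The 6 stomach genes averaged 0.30, 0.26 and 0.02 in vehicle 2, 4 and 5, at most 0.10 in the model and at most 0.03 in the sham spleens. Atp4b, a subunit of the gastric proton pump, read 4.32, 4.16 and 3.63 in vehicle, 3.74, 3.56 and 3.65 in model and 3.65, 3.61 and 3.51 in sham spleens. Pgc, a pepsinogen, and Tff1, a mucosal peptide, were highest in vehicle 4, at 3.89 and 4.60, and Cblif, the intrinsic factor gene, in model 3, at 3.43.

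The 3 mesothelium genes lay between -0.16 and -0.08 in the vehicle spleens, and were highest in sham 5, at 0.47. Msln and Upk1b were highest in sham 5, at 6.54 and 4.66, and Wt1 in model 3, at 6.24. The 8 hepatocyte genes averaged 0.14, 0.23 and -0.21 in the vehicle and at most 0.33 in the sham spleens. That sham value came from Fgg, a fibrinogen chain, which reached 7.61 in sham 5 and 5.88 in model 3. Without Fgg the other 7 averaged 0.24, 0.26 and -0.08 in vehicle 2, 4 and 5, against -0.06 to 0.11 in the model and -0.02 to 0.04 in the sham spleens. Ambp and Apoa1, plasma protein genes of the liver, were highest in vehicle 2, at 4.20 and 4.89, and Alb, the albumin gene, in sham 4, at 4.11. The part of these cell types in the enzyme values was not tested.

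Genes of the spleen itself also differed in the vehicle arrays. The 4 B cell genes averaged -0.14 in vehicle 2, -0.87 in vehicle 4 and 0.20 in vehicle 5, against 0.15 to 0.23 in the model and -0.17 to 0.21 in the sham spleens. Cr2, Cd79b, Cd22 and Ms4a1 were all lowest in vehicle 4, at 7.70, 9.84, 8.03 and 9.14. In vehicle 2, Ms4a1 was the highest of all spleens, at 10.17.

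The 9 red pulp and stroma genes averaged -0.28, 0.05 and -0.19 in the vehicle spleens, -0.04 to 0.16 in the model and -0.01 to 0.01 in the sham spleens. Of its macrophage genes, Spic was second-highest in vehicle 2, after vehicle 4, and Cd163 was lowest in vehicle 2. Spic, a transcription factor of red pulp macrophages, read 5.58, 5.85 and 4.40 in the vehicle spleens, 3.96, 4.72 and 4.50 in the model spleens and 4.57, 4.64 and 4.61 in the sham spleens, high in vehicle 2 and 4. Cd163, a red pulp macrophage receptor, read 8.61, 9.76 and 9.10 in the vehicle spleens, 9.70, 9.86 and 9.94 in the model spleens and 9.21, 9.32 and 9.74 in the sham spleens, lowest in vehicle 2. Ccl19, a chemokine of the T cell zone, read 6.35, 5.77 and 6.59 in vehicle spleens, 7.27, 7.18 and 7.46 in model and 7.50, 7.24 and 6.97 in sham spleens, so vehicle lay below both. Cxcl13 was highest in vehicle 5, at 9.69.

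The 7 leukocyte genes averaged -0.35, -0.34 and -0.02 in the vehicle spleens, -0.13 to -0.06 in the model and -0.15 to 0.20 in the sham spleens. S100a8 and S100a9, neutrophil calcium-binding proteins, were highest in the sham group, and Cd3e, a T cell receptor chain, was lowest in vehicle 4, at 7.18. Csf3r, a neutrophil growth factor receptor, was highest in model 2, at 8.16. The 7 brain genes averaged 0.17, 0.22 and -0.03 in the vehicle, -0.10 to 0.13 in the model and -0.03 to 0.05 in the sham spleens. Gfap, Gad1 and Slc1a2 stayed at or below 4.85 in every spleen, against at least 7.14 in every brain. Mbp, the myelin basic protein gene, did not separate these tissues. It read 6.74 to 7.41 in spleen, highest in vehicle 4, 6.64 to 7.36 in brain and 7.72 to 8.89 in white blood cells.

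Lipase and peptidase relatives with wide expression averaged 0.06, 0.08 and 0.02 in vehicle 2, 4 and 5 over the 15 measured, against 0.05 to 0.24 in the model and -0.03 to 0.02 in the sham spleens. Lpl, the lipoprotein lipase of fat and muscle capillaries, read 9.74, 10.23 and 9.83 in vehicle, 10.21, 10.53 and 10.49 in model and 9.96, 9.33 and 9.62 in sham spleens. The peptidases Cpm and Cpq were highest in model 3, at 6.12 and 7.90, and Cpn1 in sham 3, at 5.10.

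The 12 secretory pathway genes, abundant in acinar and plasma cells, averaged 0.47, 0.23 and 0.69 in vehicle 2, 4 and 5 and 0.49 to 0.79 in the model spleens, against -0.06 to 0.05 in the sham spleens. The limma fit called 2 of them higher in MCAO minus sham (0.0965% of all genes called), 1 in model minus sham (0.0414%) and 0 in vehicle minus sham (0.0483%) and vehicle minus model (0%). Hspa5, an endoplasmic reticulum chaperone, was called in MCAO and in model minus sham, and Sdf2l1, another protein of that compartment, in MCAO minus sham. At an unadjusted p under 0.05 stood 9 of the 12 in each of MCAO and model minus sham. Derl3 was highest in model 2, at 7.57, Creld2 in vehicle 5, at 9.63, and Pdia4 in model 3, at 9.67. Vehicle 2 was first for 1 of the 12 (8.33%), against 22.1% of all genes.

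**Figure D4:**
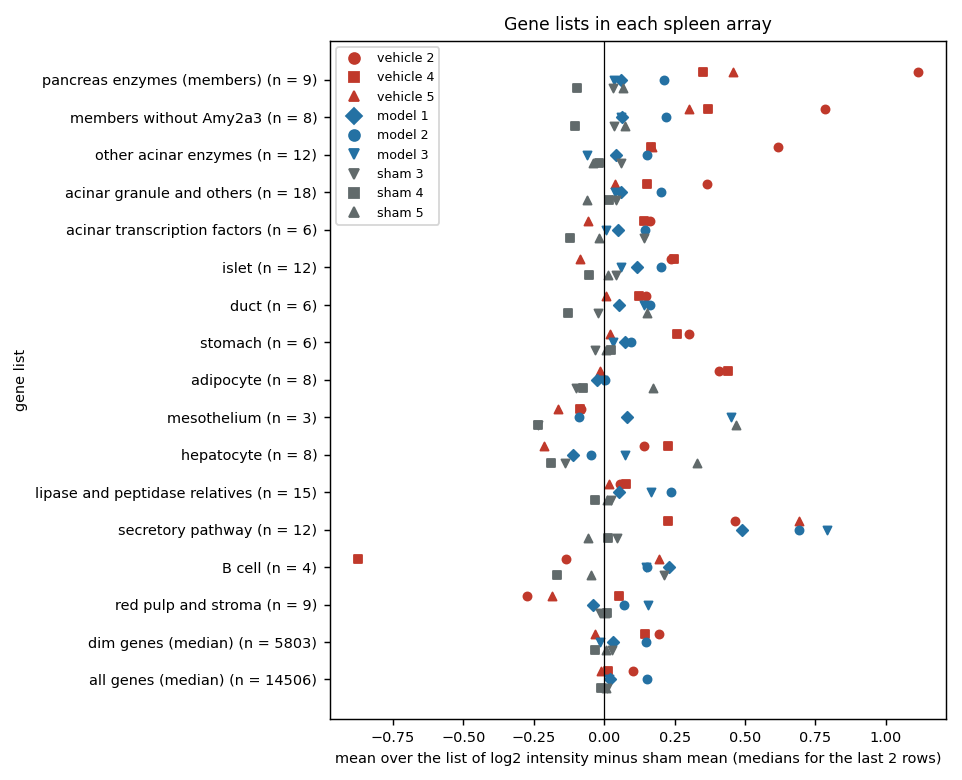
Mean over each gene list (rows, with the number of genes) of log2 intensity minus the sham mean, 1 point per spleen array, with medians for the last 2 rows. Color gives the group and marker shape the rat number. Vehicle 2 stands apart in the rows of the enzyme genes, at 1.12, and of the other acinar enzymes, at 0.62, and lies within 0.25 of 0 for acinar transcription factors, islet and duct genes.

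Across the 9 spleens the correlation with Amy2a3 was between 0.55 for Cel and 0.85 for Pnlip. Without vehicle 2 it was 0.69 for Cpa1, 0.57 for Pnliprp1, 0.53 for Clps, 0.53 for Cpb1, 0.50 for Pnlip, 0.19 for Ctrb1 and -0.09 for Cela2a and Cel. The shared pattern of the chymotrypsin, elastase and ester lipase genes with amylase thus rests on that 1 array. Without vehicle 2, Amy2a3 stood apart only in vehicle 5, at 4.62, against 2.74 to 3.12 in the remaining spleens. The correlations of the other genes without vehicle 2 therefore lean on vehicle 5, and whether they hold without it was not tested. These correlations describe arrays that share their scaling, and dim genes shift together with it.

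The genes most like the mean of the 9 enzymes were sought among 1894 genes with an SD of at least 0.3 over the 9 spleens. Outside the lists, the 10 closest were Or5aq1b, Dpm3, Or6c69, Psmc6, Scand1, Chic2, Xcl1, Rad18, Ndufa6 and Rps24, with r between 0.89 and 0.95. Or5aq1b and Or6c69 are olfactory receptor genes. Dpm3, a subunit of the dolichol-phosphate mannose synthase, read 8.06, 7.09 and 7.48 in vehicle 2, 4 and 5, against 7.12, 7.08 and 7.05 in the model and 7.05, 6.95 and 7.22 in the sham spleens. Rps24, a ribosomal protein gene, read 10.86, 10.14 and 10.56 in vehicle, 10.04, 9.91 and 9.98 in model and 10.08, 9.83 and 10.26 in sham spleens. Within the lists Prss1 (r = 0.92), Prss3b (r = 0.89), Pla2g1b (r = 0.88) and Reg1a (r = 0.88) came closest in this search besides Amy2a3, which is itself part of that mean. The enzymes Pnlip, Pnliprp1, Cela2a, Clps and Cel had an SD under 0.3 and were not in the search. Genes inside and outside the acinar lists were thus among the closest, and all of those printed here peaked in vehicle 2, while the order of the other spleens differed between them.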

How the data were processed

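RNA of brain, spleen and white blood cells was hybridized to Affymetrix rat Gene arrays, 1 array per rat and tissue. Per the submitters' processing notes the authors used RMA, a method of background correction, normalization across arrays and probe summary; its version, and whether the tissues were normalized together, are not given in the sources used here. The deposited values are taken as log2 intensities from their range and the array medians of 4.96 to 5.31. No genome build was given with the files, so genes carry no positions, and no sequence is shown. Of 27596 probes, 15310 with 1 symbol were kept, giving 14506 genes (the probe with the highest mean where a gene had several). Groups came from the sample titles.

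The 3 tissues had separate limma fits (version 3.58.1, R 4.3.3; a mean per group, 9 arrays, 6 residual degrees of freedom), and blood against brain effects in a fit of all 27 arrays, with 2-sided p-values adjusted by Benjamini-Hochberg over all genes. The script was tested on simulated data. The number of arrays limits the precision. No label gives an array batch, so none could be tested.

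The enzyme genes and 15 further lists (169 symbols in all lists, 144 measured) were chosen with earlier results of these data known. Named were all 9 enzymes, the up to 4 genes of a list with the widest range over the spleens, and the 10 most alike genes outside the lists; Amy1, for its place beside Amy2a3, and Hspa5, as a called list gene, fall outside this rule and were named after their values were seen. Alternatives changed the arrays in the fit, scaling, filter, probe choice, variance model, array weights, replicate block and threshold, and left out each array; 1 more, without vehicle 2 and vehicle 5, was chosen after seeing the data.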

Additional observations from a re-analysis of the deposited data

Results flagged for a closer look

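Pnliprp1 lay on opposite sides of sham in spleen and white blood cells: every vehicle array was above every sham array in spleen and below every sham array in white blood cells. The white blood cell values were 2.88, 2.81 and 2.90 in vehicle 2, 4 and 5, against 3.37, 2.94 and 3.03 in sham 3, 4 and 5. The vehicle minus sham difference was 0.48 in spleen and -0.25 in white blood cells, so the 2 effects were 0.733 apart. That difference was not tested, because the gene was selected on its spleen values. The sham 3 array of white blood cells, which holds the highest of these values, also had the highest median over all genes, 5.62.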

How the results depend on the processing

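The median difference of the 9 enzymes in spleen stayed within 0.25 of its value under every alternative run. That margin is the pooled SD between arrays of the mean of the 9 genes, and it is wide. It exceeds the model minus sham median of 0.13, which was -0.06 with the replicate block. Apart from the block and from leaving out single arrays, the median difference ranged from 0.277 to 0.58 for vehicle minus sham (0.47 as reported), 0.18 to 0.502 for vehicle minus model, 0.0693 to 0.159 for model minus sham and 0.233 to 0.35 for MCAO minus sham. Leaving out single arrays gave 0.328 to 0.57, 0.202 to 0.435, 0.1 to 0.198 and 0.27 to 0.363 in the same order. Without vehicle 2 and vehicle 5 together, Amy2a3 was only 0.21 above sham and 0.207 above model, Cpa1 0.15 and 0.18, and Clps 0.277 and 0.0533; with 1 vehicle array left, the fit assumes that it varies like the other groups. The filter at the 40th percentile left 2 of the 9 genes, Ctrb1 and Cela2a.

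An enzyme gene was called in 3 alternatives, each with 1 gene. Amy2a3 was called in vehicle minus model with all 27 arrays in the fit, where 107 of all genes were called. Amy2a3 was also called in vehicle minus sham without vehicle 4, its lowest vehicle array, where 16 of all genes were called. Ctrb1 was called in vehicle minus model without vehicle 5, its lowest vehicle array, where 317 of all genes were called. Because the enzyme genes were selected on these spleen contrasts, nothing is read from these calls. In blood and brain 0 of the 9 were called under every alternative.

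The number of all genes called in spleen, 14, 7, 6 and 0 for MCAO minus sham, vehicle minus sham, model minus sham and vehicle minus model, moved more. It was 46, 29, 62 and 107 with all 27 arrays in the fit, and 36 (MCAO minus sham) and 123 (model minus sham) with array weights. Vehicle minus sham had 4 called genes under quantile normalization and 4 under median centring. Model minus sham had 3 under quantile normalization, 0 under median centring, 0 with the 40th percentile filter and 14 with a variance trend. At an adjusted p under 0.10 there were 24 for MCAO minus sham and 13 for model minus sham. Without vehicle 2 and vehicle 5 the counts were 1 for MCAO minus sham, 23 for model minus sham and 295 for vehicle minus model. Leaving out single arrays gave 0 to 28, 0 to 16, 0 to 21 and 0 to 317, the last without vehicle 5, and vehicle minus model had 0 without vehicle 2. The cause was not tested.

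Replicate numbers name different rats, and same-numbered spleens of different groups correlated at r from -0.173 to 0.263, above 0.1 in 1 of 4 pairs. With the number as a replicate block, 1, 0 and 1 genes were called for MCAO minus sham, vehicle minus sham and model minus sham. The enzymes' median was then 0.211, 0.35 and -0.06 for these contrasts and 0.424 for vehicle minus model. Model minus sham was -1.16 for Amy2a3, -0.512 for Cpb1, -0.196 for Cela2a and -0.06 for Pnlip.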

Other observations

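The spleen array of vehicle 2 had a further gene that stood apart, named here after its values were seen. Ly6al exceeded the median of the other 8 spleens by 4.29 in vehicle 2, while in each of the other 8 spleens it lay between -0.43 and 0.35 relative to the median of the rest. Other large excesses of vehicle 2 occurred elsewhere too. Ifit1, an interferon-induced gene, stood 2.27 above in vehicle 2, but 3.50 above in vehicle 4 and 2.76 to 2.85 above in model 2, sham 4 and sham 5. In vehicle 5, model 1, model 3 and sham 3 it lay between -5.555 and -5.025 relative to the median of the rest. The spleens thus split into high and low Ifit1 across all groups. Car3, a carbonic anhydrase abundant in fat and muscle, stood 1.77, 1.90 and 1.20 above in vehicle 2, 4 and 5, and 1.44 above in sham 5.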
